A study of Mus musculus with 8 samples.

Results

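The sarcomere is the repeating contractile unit of heart muscle, in which thick filaments of myosin pull on thin filaments of actin. The thin filaments are anchored at the Z-disc, the thick filaments are cross-linked at the M-band, and the giant protein titin spans the space between these 2 structures. Many sarcomere proteins exist as related isoforms that are used at different stages of life or in different muscles, and several Z-disc proteins also act in the response of heart muscle to stretch. A list of 47 symbols for sarcomere and Z-disc genes was examined in mouse heart, out of 55471 genes in the deposited tables. For 46 of the symbols a gene was found. The symbol Myopn matched no gene and is not analysed here, while Mypn, the symbol of myopalladin, is in the list in its own right. Of the 46 genes, 45 had enough reads to be tested, and Ankrd2 did not.

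Small pieces of heart were sequenced from 4 wild-type animals (WT) and 4 TAZG197V animals, all 14 weeks old. TAZG197V mice carry a point mutation made with CRISPR/Cas9 in exon 7 of Taz, the gene of the mitochondrial enzyme Tafazzin, which remodels the phospholipid cardiolipin. Mutations in the same gene cause Barth syndrome, a disease of heart and skeletal muscle, in people. The edit was made in C57BL/6N zygotes, founders were crossed to C57BL6/J for 2 generations, and the mutation is present in every cell of the animal from conception, so that effects in heart muscle cannot be told apart from effects of other organs on the heart. No mouse received a treatment, and which region of the heart each piece came from was not given in the sources used here.

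Total counts per library ranged from 23055689 to 36301031. Levels are given as CPM, which are read counts scaled to a common library size, and fold changes are TAZG197V over WT from a fit that also holds 2 surrogate variables, so that a fitted fold can differ from the ratio of 2 means. A gene was called when its adjusted p in edgeR was under 0.05, its fold change was beyond 1.15 either way and its mean scaled count was at least 50. The edited gene Taz itself was transcribed at 60.9 ± 2.36 CPM in WT and at 47.3 ± 2.6 CPM in TAZG197V hearts (SD, n = 4 each). Its log2 fold change was -0.37 ± 0.06 (standard error) with an adjusted p of 0.00124 in edgeR.

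3 libraries stood apart in summed marker levels. WT 4 held 55072 CPM of the 6 red cell genes, against 227 to 1065 CPM in the other 7 libraries. WT 4 and TAZG197V 4 held 174 and 302 CPM of the 6 brain markers, against 35.8 to 73.7 CPM elsewhere. WT 2 held 1146 CPM of the 8 atrial markers, against 20.8 to 133 CPM elsewhere. Of the 45 tested sarcomere genes, 32 had their lowest WT value in WT 4, so for many members results are also given with some of these libraries left out. In all 8 libraries the 4 ventricular markers, Myl2, Myl3, Irx4 and Hey2, summed to 9486 to 14785 CPM. Of 11 skeletal muscle markers, 8 were under 1 CPM in every library, among them the fast myosins Myh1, Myh2 and Myh4. The 11 summed to 3.17 to 4.90 CPM in WT and 1.89 to 2.36 CPM in TAZG197V hearts, so that the sum was lower in every TAZG197V heart. Of the 3 that were tested, 0 were called, and Tnni2 alone went from a mean of 1.15 to 0.27 CPM. The sum of the 5 fibroblast markers was also lower in every TAZG197V heart, at 605 to 836 against 879 to 1463 CPM. The most abundant of them, Dcn (644 ± 185 CPM in WT), was the only 1 without overlap between the genotypes. Of the fibroblast markers 3 of 5 were called lower and of the endothelial markers 2 of 4, where 15.1% of all genes tested were. The endothelial sums overlapped. The part of these cell types in the results was not tested. In RNA from a piece of tissue, fewer cells of a type and less RNA per cell cannot be told apart.

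Together the sarcomere and Z-disc genes took 10.0% ± 0.848 of all counts in WT and 9.45% ± 0.313 in TAZG197V hearts (SD, n = 4 each), and the ranges of the genotypes overlapped. Of the 45 genes tested, 8 were called higher in TAZG197V hearts, 11 were called lower and 26 were not called. That is 42.2% of the tested members, against 33.5% of all 15084 genes tested in either direction and 40.9% of the 12357 genes that reached the mean count of 50. Over all genes, 18.5% were called higher and 15.1% lower. Of the 45 tested members, the genotypes did not overlap for 5 that were higher and 4 that were lower. That is a smaller share than the 33.2% of all genes tested. The median log2 fold change of the tested members was -0.07 and that of all genes was -0.01. The members differed from each other, and are described by role.

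**Figure D1:**
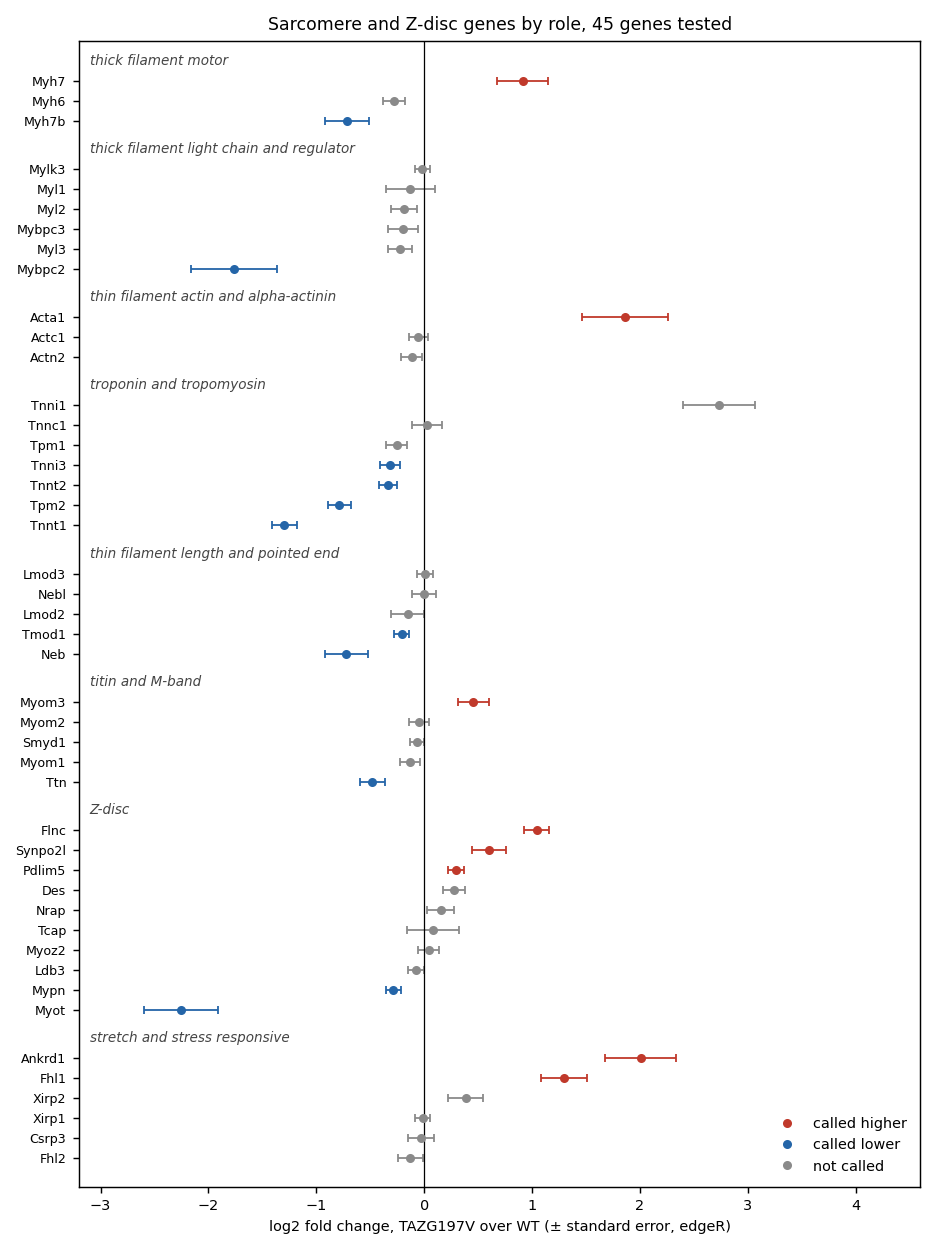
Log2 fold change of TAZG197V over WT (horizontal axis, points with standard error from edgeR) for the 45 tested sarcomere and Z-disc genes, grouped by role, with 4 libraries per genotype. Ankrd1, Acta1, Fhl1 and Flnc lie farthest to the right among the called genes, Myot and Mybpc2 farthest to the left, and Tnni1 lies at 2.73 without being called because its mean scaled count was 26.8.

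The 4 members with the largest called rises, at 2.06-fold to 4.02-fold, were Ankrd1, Acta1, Fhl1 and Flnc. The upstream sequences of Ankrd1, Acta1 and Fhl1 are shown with that of Actc1, the main heart actin gene, which was not called, so that an actin gene that rose can be read beside one that did not. Each line gives the 150 bases before a RefSeq start on GRCm38.p6, 5′ to 3′ on the strand of the gene, and capitals mark the letters of 3 motifs searched on both strands. The motifs were the TATA box (TATAAA), the MCAT element (CATTCC), to which TEAD factors are known to bind, and the CArG box, to which serum response factor is known to bind and which can itself hold the letters of the TATA box.
Acta1, chr8:123894776-123894925, minus strand: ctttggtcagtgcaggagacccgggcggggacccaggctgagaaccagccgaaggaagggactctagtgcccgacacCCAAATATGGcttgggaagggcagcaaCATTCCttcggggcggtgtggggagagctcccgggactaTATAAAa
Actc1, chr2:114052876-114053025, minus strand: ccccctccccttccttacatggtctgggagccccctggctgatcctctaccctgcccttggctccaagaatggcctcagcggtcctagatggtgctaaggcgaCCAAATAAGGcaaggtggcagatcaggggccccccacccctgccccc
Ankrd1, chr19:36119845-36119994, minus strand: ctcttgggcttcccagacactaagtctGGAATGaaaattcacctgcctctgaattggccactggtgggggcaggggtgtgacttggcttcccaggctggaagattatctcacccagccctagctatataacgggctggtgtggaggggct
Fhl1, chrX:56779533-56779682, plus strand: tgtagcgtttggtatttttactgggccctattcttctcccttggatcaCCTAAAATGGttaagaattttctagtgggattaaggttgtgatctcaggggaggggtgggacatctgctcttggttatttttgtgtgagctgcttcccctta

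The Acta1 window held a CArG box at bases -73 to -64 before the start, an MCAT element at -46 to -41 and a TATA box at -7 to -2, and the Actc1 window held a CArG box at -47 to -38 and, beyond the stretch printed, a TATA box at 33 to 38 after the start. The Ankrd1 window held an MCAT element on the opposite strand at -123 to -118 and, outside the stretch printed, another at -210 to -205. The Fhl1 window shown held a CArG box at -102 to -93 and a TATA box just outside the stretch printed, at -156 to -151, and the window at its other listed start held none of the 3 motifs. Windows from 250 bases before to 50 bases after the start were on hand for 40 of the members. A CArG box was found in 8 of these 40 genes, against 1.81% of the 27025 genes with a window. The 8 were Acta1 and Fhl1, which rose, and Actc1, Fhl2, Ldb3, Myl3, Myom1 and Nebl, which were not called. MCAT letters were found in 16 of the 40 members, against 16.6% of all genes, and TATA letters in 12 of the 40, against 15.7%. Members with MCAT letters were called higher (Acta1, Ankrd1, Flnc and Myh7), called lower (Mybpc2, Mypn, Tmod1, Tnnt2 and Ttn) or not called. These matches are letters in a window and show no binding.

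Ankrd1 (chromosome 19, 36111961 to 36120099, minus strand, mm10) codes for a stretch-responsive repressor that resides at the I-band of the sarcomere and in the nucleus. It was measured at 1239, 2031, 1630.1 and 303 CPM in WT 1 to WT 4. In TAZG197V 1 to 4 it was measured at 4349, 4892, 3015 and 3396 CPM, so that every TAZG197V heart was above every WT heart. The log2 fold change was 2.01 ± 0.33 (4.02-fold, adjusted p = 0.00215 in edgeR). WT 4 had the lowest value by far, and without WT 4 the log2 fold change was 1.27 with an adjusted p of 0.00224. Its level per kilobase of exon moved from rank 14 to rank 7 among the members. Its relative Ankrd2, which is known from slow skeletal muscle, had 0 to 11 counts per library and was not tested.

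Fhl1 and Fhl2 code for LIM-domain proteins that bind titin, and Fhl1 is known to rise in hypertrophied heart. Fhl1 (chromosome X, 56731787 to 56793346, plus strand) was measured at 147, 180.5, 147 and 151 CPM in the WT hearts and at 378, 511, 232 and 379 CPM in the TAZG197V hearts. It rose 2.46-fold without overlap between the genotypes (log2 fold change 1.30 ± 0.21, adjusted p = 0.0021 in edgeR). Fhl2, the more abundant of the pair, was at 1755 ± 346 CPM in WT and 1580.4 ± 91.8 CPM in TAZG197V hearts and was not called (log2 fold change -0.13 ± 0.11, adjusted p = 0.404 in edgeR). Without WT 4, Fhl2 passed as lower, with a log2 fold change of -0.26 and an adjusted p of 0.0447. The other stretch-related members Csrp3, Xirp1 and Xirp2 had log2 fold changes of -0.03, -0.01 and 0.38 and were not called. Xirp2, which binds actin and alpha-actinin, was measured at 508 to 806 CPM in WT and at 685 to 1061 CPM in TAZG197V hearts (adjusted p = 0.0988 in edgeR). It passed, at a log2 fold change of 0.51 and an adjusted p of 0.0415, when TAZG197V 3 was left out.

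Acta1 codes for skeletal alpha-actin, which the mouse heart uses before birth and which is known to return under load, while Actc1 codes for cardiac alpha-actin. Acta1 (chromosome 8, 123891769 to 123894751, minus strand) was measured at 298, 305, 329.5 and 92.4 CPM in the WT hearts and at 831, 1103, 412 and 894 CPM in the TAZG197V hearts. All TAZG197V values lay above all WT values, and the log2 fold change was 1.86 ± 0.40 (3.63-fold, adjusted p = 0.00729 in edgeR). Actc1, at 8794 ± 544 CPM in WT and 8463 ± 282 CPM in TAZG197V hearts, was not called (log2 fold change -0.05 ± 0.09). Acta1 reads were 1.11% to 3.40% of the reads of the pair in WT libraries and 4.79% to 11.5% in TAZG197V libraries. The minor actin gene thus took a larger share in every TAZG197V heart, and Actc1 remained the first-ranked member per kilobase of exon in both genotypes, at 5435 and 5230 CPM per kilobase. Actn2, the cross-linker of actin at the Z-disc, was not called either (log2 fold change -0.12 ± 0.10). Without WT 2 and both number 4 libraries Actn2 passed as lower (-0.29, adjusted p = 0.029 in edgeR).

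**Figure D2:**
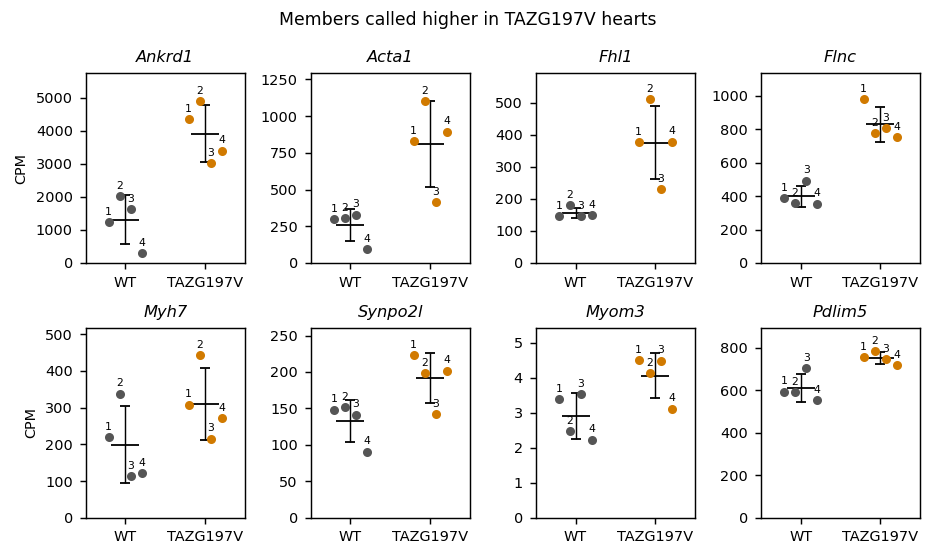
CPM in each library (vertical axes, numbered points for replicates 1 to 4) of the 8 members called higher in TAZG197V hearts, with the mean and SD of each genotype as bars. WT 4 is the lowest WT point for Ankrd1, Acta1 and Synpo2l, and the genotypes do not overlap for Ankrd1, Acta1, Fhl1, Flnc and Pdlim5.

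Among the myosin motors, Myh6, the fast alpha-heavy chain of adult mouse heart, was the most abundant, and Myh7, the slow beta-chain of the foetal ventricle, was a minor component. Myh7 (chromosome 14, 54970684 to 54994626, minus strand) was measured at 220.3, 338, 114 and 122 CPM in the WT hearts and at 308, 444, 216 and 272 CPM in the TAZG197V hearts. WT 2 lay above 3 of the TAZG197V hearts, so the genotypes overlapped. The fitted log2 fold change was 0.92 ± 0.24 (adjusted p = 0.0163 in edgeR). Without WT 4 alone the log2 fold change was 0.47 with an adjusted p of 0.334, and without TAZG197V 4 alone it was 0.55 with an adjusted p of 0.262. Without both of these libraries it was 0.60 and just passed (adjusted p = 0.0493), and without WT 2 as well it was 1.00 (adjusted p = 0.013). With no surrogate variables it was 0.64 with an adjusted p of 0.212.

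Myh6 (chromosome 14, 54941921 to 54966927, minus strand) was lower in every TAZG197V heart, at 18324 to 22559 CPM against 23909 to 26587 CPM in WT. Its log2 fold change was -0.28 ± 0.10 and it was not called (adjusted p = 0.0651 in edgeR). It passed with DESeq2 (adjusted p = 0.00279) and with 1 or no surrogate variables (adjusted p = 0.0405 and 0.0233 in edgeR). Myh7 took 0.459% to 1.38% of the reads of the Myh6 and Myh7 pair in WT and 0.978% to 2.36% in TAZG197V libraries, with overlap. Of the 50-base windows of these neighbouring genes, 20.2% in Myh6 and 20% in Myh7 also occur in another gene, chiefly in each other, so the division of reads between them is uncertain. In addition, 13.3% of the exon bases of Myh7 lie within an exon of Gm31251 on the opposite strand, whose reads cannot be told apart from it where strand was not used. Myh7b, a slow-tonic myosin gene whose heart transcript is known to give little protein, was measured at 122, 109.8, 106 and 59.6 CPM in the WT hearts and at 79.7, 52.3, 44.6 and 50.8 CPM in the TAZG197V hearts. It was called lower (log2 fold change -0.71 ± 0.21, adjusted p = 0.026 in edgeR), with WT 4 below TAZG197V 1. The call was lost when WT 1, WT 2, WT 3, TAZG197V 2 or TAZG197V 3 was left out, with log2 fold changes of -0.59, -0.74, -0.70, -0.62 and -0.58. It was also lost with DESeq2 (-0.72, adjusted p = 0.0542) and with the atrial markers as a covariate (-0.57, adjusted p = 0.137).

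Of the light chains and regulators of the thick filament, Mybpc2 was called among the 6 tested, where 33.5% of all genes were called. Mybpc2, the fast skeletal isoform of myosin-binding protein C, was measured at 27.4, 57.2, 13.4 and 3.53 CPM in the WT hearts. In the TAZG197V hearts it was measured at 3.85, 3.62, 2.52 and 8.1 CPM. WT 4 lay within the TAZG197V range, while WT 1 to WT 3 lay above it. The log2 fold change was -1.76 ± 0.40 (adjusted p = 0.00917 in edgeR) and moved with the libraries used, to -3.06 without WT 4 and -3.15 without TAZG197V 4. It was -1.29, -1.83, -1.62, -1.53 and -1.48, and no longer called, without WT 1, WT 2, TAZG197V 1, TAZG197V 2 and TAZG197V 3. WT 2 and WT 1, the WT hearts with the most Mybpc2, also held the most of the atrial light chains Myl7 (385 and 27 CPM) and Myl4 (411 and 35.2 CPM). Sln and Mybphl had the same order, and Bmp10 was highest in WT 1. Sbk2 and Sbk3 were lower in WT 1 (7.07 and 3.69 CPM) than in WT 4 (12.7 and 3.88 CPM). Nppa was lower in WT 1 (43.0 CPM) than in WT 3 (67.6 CPM). With the atrial markers as a covariate the log2 fold change of Mybpc2 was -0.91 (adjusted p = 0.263 in edgeR). Of the 8 atrial markers 6 were tested and 4 of them (Myl4, Myl7, Sbk2 and Sbk3) were called lower, where 15.1% of all genes tested were. The Myl4 and Myl7 signal lay in WT 1 and WT 2, and Myl7 was at 1.28 CPM or less in the TAZG197V hearts. Sbk2 and Sbk3 were lower in every TAZG197V heart, so the covariate made from these markers partly carried genotype. Nppa and Bmp10 had log2 fold changes of 0.72 and 0.17 and were not called. Mybpc3, the cardiac isoform that is mutated in many cases of hypertrophic cardiomyopathy, was at 4837 ± 973 CPM in WT and 4168 ± 441 CPM in TAZG197V hearts and was not called. Its log2 fold change was -0.20. Without WT 2 and both number 4 libraries Mybpc3 passed as lower (-0.43, adjusted p = 0.0105 in edgeR).

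The ventricular light chains Myl2 and Myl3 had log2 fold changes of -0.18 and -0.22 and were not called (adjusted p = 0.261 and 0.15 in edgeR). Both passed as lower without WT 4, in which they had their lowest WT values of 5875 and 3574 CPM, with log2 fold changes of -0.31 and -0.34. Mylk3, the cardiac kinase of the regulatory light chain, was at 639.8 ± 38 CPM in WT and 637 ± 27.2 CPM in TAZG197V hearts (log2 fold change -0.02 ± 0.07). Myl1, the fast skeletal light chain, stood at 10.2 to 25.5 CPM over the 8 libraries and was not called.

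Among the regulatory proteins of the thin filament, 4 of 7 troponin and tropomyosin genes were called lower and 0 higher, where 15.1% and 18.5% of all genes tested were. Tnnt2, cardiac troponin T, which ties the troponin complex to tropomyosin, was measured at 8936, 7937, 8159.8 and 7299 CPM in the WT hearts and at 6489.5, 6253, 6665 and 6123 CPM in the TAZG197V hearts. No value overlapped, and the log2 fold change was -0.33 ± 0.09 (adjusted p = 0.0158 in edgeR). Without TAZG197V 2 it was -0.31 and missed the threshold (adjusted p = 0.0542). Tnni3, cardiac troponin I, the inhibitory subunit and a target of protein kinase A, was at 4205 ± 445 CPM in WT and 3396 ± 284 CPM in TAZG197V hearts. It was called lower with overlap of 1 TAZG197V heart (log2 fold change -0.32 ± 0.09, adjusted p = 0.0255 in edgeR), and was no longer called without WT 3 (-0.29), without TAZG197V 1 (-0.31) or with the atrial markers as a covariate (-0.30, adjusted p = 0.0851). Tnnc1, the calcium-binding subunit, was at 1939.6 ± 425 and 1900.4 ± 219 CPM and was not called.

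The other members called lower among the troponins and tropomyosins were isoforms present at low levels. Tnnt1, slow skeletal troponin T (chromosome 7, 4504570 to 4516382, minus strand), was measured at 12.0, 10.7, 16.0 and 18.8 CPM in the WT hearts and at 6.18, 6.83, 6.45 and 4.99 CPM in the TAZG197V hearts. All TAZG197V values were below all WT values, and the log2 fold change was -1.30 ± 0.12 (adjusted p = 0.000113 in edgeR). Tnnt1 took 0.134% to 0.257% of the reads of the Tnnt1 and Tnnt2 pair in WT and 0.0814% to 0.109% in TAZG197V libraries, without overlap. Tpm2, beta-tropomyosin, was measured at 16.9, 31.7, 14.7 and 10.8 CPM in the WT hearts and at 7.38, 9.20, 7.97 and 11.1 CPM in the TAZG197V hearts. Its log2 fold change was -0.79 ± 0.11 (adjusted p = 0.000984 in edgeR), with TAZG197V 4 just above WT 4, and it was -1.29 without WT 4 and -1.32 without TAZG197V 4. WT 2, the heart with the most Tpm2, also had the most of the smooth muscle genes Myh11 (83 CPM), Tagln (6.95 CPM) and Cnn1 (12.6 CPM), which mark a tissue that expresses this isoform too. Acta2 (154 CPM in WT 2, 187 in WT 4 and 387 in TAZG197V 2) and Smtn (146 CPM in WT 2 and 170 in WT 1) did not peak in WT 2. The 6 smooth muscle markers summed to 288 to 405 CPM in WT and 298 to 488 CPM in TAZG197V hearts, with Acta2 called higher and Myh11, Cnn1, Tagln and Smtn called lower, and their part in the Tpm2 result was not tested. WT 2 also held the most of the atrial markers, and with these as a covariate the log2 fold change of Tpm2 was -0.51 (adjusted p = 0.102 in edgeR).

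Tpm1, alpha-tropomyosin, was at 9025 ± 1143 CPM in WT and 7451 ± 471 CPM in TAZG197V hearts and fell just outside the call (log2 fold change -0.25 ± 0.10, adjusted p = 0.067 in edgeR). It passed without WT 4 (-0.35, adjusted p = 0.0138) and without TAZG197V 4 (-0.32, adjusted p = 0.0323). Tnni1, the slow skeletal troponin I that the foetal heart uses, had 10, 61, 5 and 0 counts in the WT libraries and 39, 56, 51 and 15 counts in the TAZG197V libraries. Its adjusted p was 0.000488, at a fitted log2 fold change of 2.73 ± 0.33, but its mean scaled count was 26.8 and so it was not called. WT 2 had more Tnni1 than any TAZG197V heart, and without WT 4, which had no Tnni1 count, the log2 fold change was 0.68 with an adjusted p of 0.419.

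**Figure D3:**
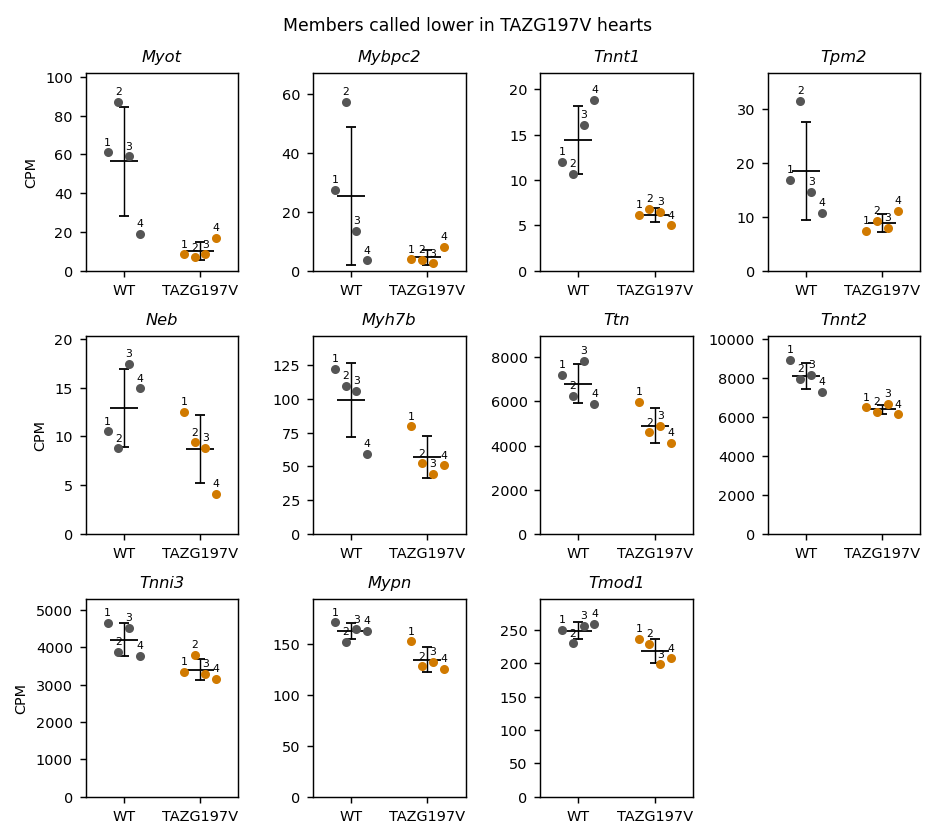
CPM in each library (vertical axes, numbered points for replicates 1 to 4) of the 11 members called lower in TAZG197V hearts, with the mean and SD of each genotype as bars. The genotypes are separate for Myot, Tnnt1 and Tnnt2, while WT 4 lies in or beside the TAZG197V range for Mybpc2, Tpm2 and Myh7b.

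Thin filament length is set by nebulin-type proteins along the filament and by tropomodulin and leiomodin at its pointed end. Neb, nebulin, which is mainly a skeletal muscle protein, was measured at 10.5, 8.77, 17.5 and 14.9 CPM in the WT hearts and at 12.5, 9.39, 8.81 and 4.07 CPM in the TAZG197V hearts. The genotypes overlapped widely, the ratio of the means was above WT in lane 7 (log2 0.18) and below it in lane 8 (log2 -1.33), and the fitted call (log2 fold change -0.72 ± 0.20, adjusted p = 0.0223 in edgeR) held in 7 of 19 alternative fits. Its log2 fold change was -0.45 without WT 4, -0.26 without TAZG197V 4, -0.80 without TAZG197V 2 and -0.75 without TAZG197V 3, and none of these passed. Nebl, the cardiac nebulette, was at 471 ± 50 and 475 ± 52.3 CPM and was not called. Tmod1, which caps the pointed end, was at 249 ± 13 CPM in WT and 218 ± 18 CPM in TAZG197V hearts (log2 fold change -0.21 ± 0.07, adjusted p = 0.0474 in edgeR). The Tmod1 call held in 5 of 19 alternative fits, and 32.6% of its exon bases lie within an exon of Tstd2 on the opposite strand, whose reads cannot be told apart from it where strand was not used. It was lost without WT 1, WT 3, WT 4, TAZG197V 2, TAZG197V 3 or TAZG197V 4, with log2 fold changes from -0.24 to -0.15.

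Lmod2 and Lmod3, which elongate thin filaments, were not called. Lmod2 was measured at 850.1, 832, 737 and 491 CPM in the WT hearts and at 568, 634, 531 and 752 CPM in the TAZG197V hearts, so that the number 4 libraries lay at the far end of each genotype. Its log2 fold change was -0.15 ± 0.15 with all libraries. It was -0.41 without WT 4 and -0.45 without TAZG197V 4, and passed in both (adjusted p = 0.00561 and 0.00372 in edgeR). Lmod3 stood at 115 CPM in both genotypes.

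Titin, coded by Ttn (chromosome 2, 76703980 to 76982547, minus strand), is the molecular spring of the sarcomere and the longest gene product of the list, with 116825 exon bases. It was measured at 7197, 6247, 7828 and 5896 CPM in the WT hearts and at 5987, 4601, 4897 and 4115 CPM in the TAZG197V hearts. TAZG197V 1 was the only mutant heart above a WT heart, and the log2 fold change was -0.48 ± 0.11 (adjusted p = 0.0117 in edgeR). Ttn was called in each of the 8 fits that left out 1 library, with log2 fold changes from -0.59 to -0.44, and missed the threshold with the atrial markers as a covariate (-0.47, adjusted p = 0.057). The M-band cross-linkers Myom1 and Myom2 were not called (log2 fold changes -0.13 and -0.05), and neither was Smyd1, a methyltransferase needed for sarcomere assembly (-0.07). Myom1 passed as lower in 1 of 19 alternative fits, and in 0 of the 8 with 1 library left out. Its log2 fold changes ran from -0.26 to -0.09 over the 19 fits. Myom3, the M-band isoform of intermediate-speed skeletal fibres, was called higher from 2.91 ± 0.649 to 4.06 ± 0.651 CPM (log2 fold change 0.46 ± 0.15, adjusted p = 0.0383 in edgeR). That call was kept in only 2 of the 8 fits with 1 library left out, those without WT 3 and without TAZG197V 4, and in the other 6 the log2 fold change was 0.39 to 0.49.

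The Z-disc held members that moved in both directions, with 3 called higher, 2 lower and 5 not called, beside 18.5% and 15.1% of all genes tested. Flnc codes for filamin C, an actin cross-linker of the Z-disc and the cell junctions that is known to gather at sites of sarcomere damage. Flnc (chromosome 6, 29433256 to 29461883, plus strand) was measured at 388, 360.1, 493 and 356 CPM in the WT hearts and at 981, 777, 806 and 755 CPM in the TAZG197V hearts. The genotypes were far apart, and the log2 fold change was 1.04 ± 0.12 (2.06-fold, adjusted p = 0.000316 in edgeR). The values of the 19 alternative fits ran from 0.93 to 1.15 and all passed. Flnc thus had the narrowest range of the 4 members that rose most.

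Pdlim5, a PDZ and LIM protein that ties kinases to the Z-disc, was measured at 593, 591, 705 and 555 CPM in the WT hearts and at 756, 785, 745 and 719 CPM in the TAZG197V hearts. It rose 1.23-fold without overlap (log2 fold change 0.29 ± 0.08, adjusted p = 0.0183 in edgeR). The call was lost without WT 1 (0.26), without TAZG197V 1 (0.29) and without TAZG197V 2 (0.28). Synpo2l, a Z-disc protein that binds actin, was measured at 148, 152, 142 and 90.7 CPM in the WT hearts and at 223, 198, 142 and 202 CPM in the TAZG197V hearts. WT 4 and TAZG197V 3 each lay below the rest of their genotype, and the log2 fold change was 0.60 ± 0.16 (adjusted p = 0.0196 in edgeR). It was 0.36 without WT 4 and 0.37 without TAZG197V 4, neither of which passed, and leaving out WT 1, WT 2, TAZG197V 1 or TAZG197V 2 also ended the call, at 0.54 to 0.68. Des, desmin, the intermediate filament that joins neighbouring Z-discs, was at 1724 ± 133 CPM in WT and 2089 ± 204 CPM in TAZG197V hearts and was not called (log2 fold change 0.27 ± 0.10, adjusted p = 0.0641 in edgeR). Des passed as higher in 6 of 19 alternative fits, 2 of them with 1 library left out, and its log2 fold changes ran from 0.14 to 0.34.

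Myot codes for myotilin, an actin-bundling protein of the Z-disc that is far more abundant in skeletal muscle than in heart. It was measured at 61.0, 87.1, 59.0 and 19.0 CPM in the WT hearts and at 8.47, 6.85, 8.45 and 16.9 CPM in the TAZG197V hearts. WT 4 and TAZG197V 4 came close to each other, yet no value overlapped, and the log2 fold change of -2.25 ± 0.34 was the largest called fall of the list (0.21-fold, adjusted p = 0.00144 in edgeR). It was called in all 19 alternative fits, with log2 fold changes from -3.12 to -1.93. Mypn, myopalladin, which binds titin and nebulette at the Z-disc, was at 163 ± 8.02 CPM in WT and 135 ± 12.2 CPM in TAZG197V hearts (log2 fold change -0.28 ± 0.07, adjusted p = 0.0156 in edgeR). It missed the threshold without TAZG197V 4 (-0.24, adjusted p = 0.054). Tcap, Ldb3, Myoz2 and Nrap, which bind titin, alpha-actinin or actin at the Z-disc or the intercalated disc, had log2 fold changes from -0.08 to 0.15 and were not called. Tcap varied most of these, from 669 to 1651 CPM among the WT hearts alone.

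**Figure D4:**
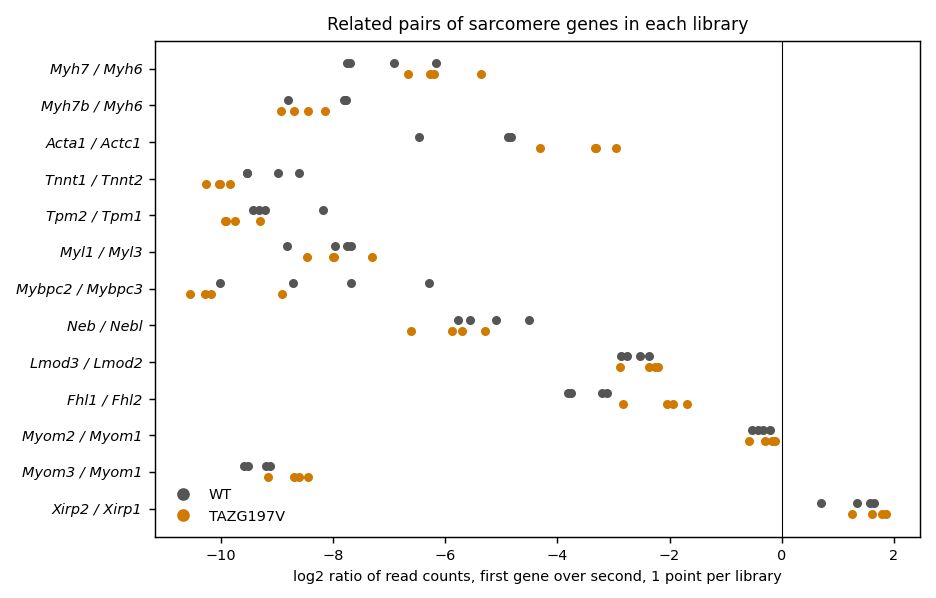
Log2 ratio of read counts of the first gene over the second (horizontal axis) in each library for 13 related pairs, with WT as grey and TAZG197V as orange points. The pairs of Tnni1 with Tnni3 and of Ankrd2 with Ankrd1 are left out because 1 library had 0 counts of the first gene, and of those drawn only the Acta1 and Actc1, Fhl1 and Fhl2, and Tnnt1 and Tnnt2 pairs have no overlap between the genotypes, the first 2 to the right in TAZG197V hearts and the last to the left.

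Ratios within 15 related pairs were described without a test. The share of Fhl1 in the Fhl1 and Fhl2 pair was 6.67% to 10.4% in WT and 12.3% to 23.6% in TAZG197V libraries. As for the actins, the minor member took more of the pair in every TAZG197V heart. The share of Mybpc2 in its pair with Mybpc3 was 0.0972% to 1.26% in WT and 0.0666% to 0.207% in TAZG197V libraries. The share of Tpm2 in its pair with Tpm1 was 0.145% to 0.342% in WT and 0.103% to 0.158% in TAZG197V libraries. In these last pairs the ranges overlapped, as they did for Myh7 and Myh6. The ratios of Myom2 to Myom1, Lmod3 to Lmod2, Xirp2 to Xirp1 and Myl1 to Myl3 also overlapped. The pair of Ankrd2 and Ankrd1 did not overlap either, but Ankrd2 had 11 counts or fewer in every library. Of the 15 genes compared with a relative, Acta1, Fhl1, Myh7 and Myom3 were called higher, Tnnt1, Tpm2, Mybpc2, Neb and Myh7b were called lower, Myl1, Lmod3, Myom2, Xirp2 and Tnni1 were not called, and Ankrd2 was not tested. Over all genes tested, 18.5% were called higher and 15.1% lower. Of these called genes only Acta1, Fhl1 and Tnnt1 kept their call in all 19 alternative fits, while Neb kept it in 7 and Myom3 in 8.

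Ordered by level per kilobase of exon, the first 4 members were Actc1, Myl2, Myh6 and Myl3 in both genotypes. Myl2 and Myh6, at 3959 ± 732 and 3764 ± 213 CPM per kilobase in WT, did not differ beyond their spread. Apart from Ankrd1, the moves in rank were small for abundant members, and Acta1 moved from rank 20 to rank 14. Fhl1 moved from rank 32 to rank 25 and Flnc from rank 31 to rank 26. In the other direction Ttn moved from rank 28 to rank 32. Exon bases of all annotated transcripts were used as the length, which lowers the level per kilobase of genes with many alternative exons such as Tnnt2 and Tpm1.

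Lists of related genes outside the members were examined in the same fit. Over all genes tested, 18.5% were called higher and 15.1% lower, and the counts of these short lists are given as descriptions beside those shares. Of 15 tested genes for other contractile isoforms and filament ends, 3 were called higher and 5 lower. The largest changes among the called genes were in the atrial light chains Myl7 (log2 fold change -3.65 ± 0.94, adjusted p = 0.0162 in edgeR) and Myl4 (-1.91 ± 0.50, adjusted p = 0.0175), where WT 2 and WT 1 held nearly all of the signal and WT 3 and WT 4 were at the level of the TAZG197V hearts for Myl7. Tnni2, fast skeletal troponin I, had a log2 fold change of -2.15 (adjusted p = 0.00116 in edgeR) but was under the mean count of 50 and so not called. Tmod4, the skeletal muscle tropomodulin, was lower in every TAZG197V heart, at 7.23 to 7.81 CPM against 15.3 to 22.2 CPM in WT (log2 fold change -1.33 ± 0.10, adjusted p = 3.82e-05 in edgeR). Of 16 tested genes for other Z-disc and M-band proteins, 2 were called higher and 8 lower. Pdlim3 and Pdlim7, which are relatives of Pdlim5, fell with log2 fold changes of -1.25 ± 0.14 and -1.10 ± 0.11 (adjusted p = 0.0003 and 0.000209 in edgeR). Pdlim1, another relative, rose like Pdlim5 (0.45 ± 0.07, adjusted p = 0.00183). Cmya5, myospryn, which lies along the Z-disc and dyad, was at 1044 ± 87.7 CPM in WT and 488 ± 48.5 CPM in TAZG197V hearts (log2 fold change -1.09 ± 0.10, adjusted p = 0.000121 in edgeR).

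Of 15 genes for sarcomere assembly and turnover, 3 were called higher and 4 lower, beside 18.5% and 15.1% of all genes tested. Klhl40, a kelch protein that stabilises nebulin and leiomodin in skeletal muscle, was lower in every TAZG197V heart, at 5.78 to 6.99 CPM against 14.5 to 20 CPM (log2 fold change -1.45 ± 0.10, adjusted p = 3.34e-05 in edgeR). Its relative Klhl41 fell by less, with overlap between the genotypes (-0.48 ± 0.09, adjusted p = 0.0039). Hspb7, a small heat shock protein that holds actin monomers and binds filamin C, was called higher at 2461 to 3044 CPM against 1318 to 2413 CPM in WT (log2 fold change 0.49 ± 0.16, adjusted p = 0.0409 in edgeR). Hspb7 was lowest in WT 4.

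Within the 2 sequencing lanes, each of which held 2 libraries of each genotype, 18 of the 19 called members had a ratio of mean CPM in the direction of the fit in both lanes, and Neb did not. Without both number 4 libraries 7 members were called higher and 12 lower, where 34.1% of all genes tested in that fit were called in either direction. When WT 2 was left out as well, which was chosen after seeing the data, 5 were called higher and 17 lower, beside 28.6% of all genes. With the atrial markers as a covariate 6 were called higher and 4 lower, beside 26.3% of all genes, and the calls lost were those of Myom3, Pdlim5, Myh7b, Mybpc2, Tnni3, Tpm2, Neb, Tmod1 and Ttn. That covariate was the mean level of the tested atrial markers, of which Sbk2 and Sbk3 were lower in every TAZG197V heart. It thus partly carried genotype itself, and the part of atrial tissue in the lost calls was not tested. The 6 members called in every alternative fit were Acta1, Ankrd1, Fhl1 and Flnc, which rose, and Myot and Tnnt1, which fell. Nothing in the labels says how the hearts were cut or whether litters were shared, and the p-values measure the spread between these 8 mice.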

How the data were processed

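RNA sequencing of heart pieces from 4 WT and 4 TAZG197V mice was used. As stated per the labels and in the methods, the authors converted 50-base single-end reads with bcl2fastq 2.20.0, aligned them to mm10 with STAR 2.7.3a and counted reads over exons with featureCounts of Subread 2.0.0. Each deposited value is a whole-number count of reads per gene, not normalised, and the strand setting was not given in the sources used here. The 92 spike-in rows held 0 counts. Symbols and positions came from GENCODE M21, and promoter windows from RefSeq (GRCm38.p6).

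Counts were filtered with filterByExpr, scaled by TMM and tested in edgeR 4.0.16 (quasi-likelihood F-test, two-sided, Benjamini-Hochberg over 15084 genes) with genotype and 2 surrogate variables from svaseq (sva 3.50.0). The standard error is the log2 fold change divided by the square root of F. The fit was also run on simulated counts with genotype changes in some genes and no hidden factor put in. That run does not show how the fit handles hidden factors. Every member was named or accounted for, and up to 3 called genes per outside list were named by size of change, with marker genes where members moved with them. Pdlim1, Tnni2 and further marker genes, among them those of the closing section, were named after their values were seen. Members, lists and pairs were chosen with earlier results of these data known. Alternatives were DESeq2 1.42.0, other covariates, filters, scalings and cut-offs, and omission of libraries. Replicates differed by more than sampling noise. Lanes and replicate numbers came from the labels and file names. No table of protein sequences was used here.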

Additional observations from a re-analysis of the deposited data

Results flagged for a closer look

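Among 90 sets of 4 libraries (45 members in 2 genotypes), 6 held 1 library that stood apart from the other 3 by the ratio of its gap to the range, where chance gives about 1 set in 20, or 4.5. WT 4 was the low library for Acta1 (gap over range 0.867), Synpo2l (0.832) and Csrp3 (0.905). WT 2 was the high library for Fhl1 within WT (0.899). TAZG197V 4 was the high library for Myot (0.840) and TAZG197V 3 the low one for Des (0.873). Acta1, Fhl1 and Myot were called in every fit with 1 library left out, and Synpo2l was not.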

How the results depend on the processing

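Over 19 alternative fits of the 45 tested members (855 values), 667 kept their direction and their side of the threshold, 80 lost a call, 38 gained one and 70 changed sign. None of the sign changes was in a called member. The count of members called higher, 8, became 5 without WT 2 and both number 4 libraries, and with 1 library left out it ranged from 5 to 9. The count called lower, 11, became 4 with the atrial markers as a covariate, 17 without WT 2 and both number 4 libraries, 6 at a fold of at least 1.5, and 6 to 14 with 1 library left out. With the replicate numbers as a block it was 7 higher and 9 lower. The share of all genes called moved too, from 33.5% to 28.6% without WT 2 and both number 4 libraries, 26.3% with the atrial markers, 12.2% at a fold of at least 1.5, 28.3% with the block and 24.1% to 31.3% with 1 library left out. Same-numbered hearts correlated at 0.277, 0.0436, 0.280 and 0.416 in their deviations from the genotype means. The same number was the best match of WT 1, WT 2 and WT 4, while WT 3 correlated best with TAZG197V 2 (0.317). TAZG197V 1, TAZG197V 2 and TAZG197V 3 each correlated best with WT 3. Whether the numbers pair the mice was not settled, and the main fit did not pair them. The block ended the calls of Mybpc2, Neb, Tmod1 and Synpo2l and let Myh6 pass. The cause of these changes was not tested.

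Members near no change crossed 0, all as log2 fold changes. Lmod3 gave -0.01 with DESeq2, its size factors, no surrogate variables or lane, -0.002 with the replicate block, -0.02 with no low-count filter, -0.033 without both number 4 libraries and -0.113 without WT 2 as well. In the order no surrogate variables, 1 surrogate variable, lane, replicate block, no low-count filter and without both number 4 libraries, Tcap gave -0.097, -0.075, -0.011, -0.036, -0.231 and -0.351, Tnnc1 gave -0.029, -0.002, -0.032, -0.006, -0.083 and -0.143, and Xirp1 gave 0.019, 0.019, 0.029, 0.029, 0.075 and 0.103. Without WT 2 and both number 4 libraries Tcap gave -0.199, Tnnc1 -0.211, Mylk3 0.016, Myl1 0.031, Myoz2 -0.093 and Nrap -0.078. Without both number 4 libraries Mylk3 gave 0.052, Nrap -0.059 and Smyd1 0.008. Mylk3 gave 0.025 with no low-count filter, Nebl -0.01 with DESeq2 or its size factors, and Csrp3 0.053 and Myom2 0.038 with the atrial markers.

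With 1 library left out, the ranges of those that crossed 0 were -0.073 to 0.039 for Lmod3, -0.319 to 0.390 for Tcap, -0.165 to 0.116 for Tnnc1, -0.100 to 0.083 for Xirp1, -0.060 to 0.049 for Mylk3, -0.313 to 0.042 for Myl1, -0.008 to 0.103 for Myoz2, -0.041 to 0.237 for Nrap, -0.105 to 0.007 for Smyd1, -0.111 to 0.121 for Nebl, -0.205 to 0.047 for Csrp3 and -0.110 to 0.039 for Myom2. Counting error was small for abundant members at these depths, while Tnni1 had 0 to 61 and Myom3 50 to 153 counts per library.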

Other observations

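Of 7 heart muscle genes outside the sarcomere that served as markers, 3 were called lower and 1 higher, where 15.1% and 18.5% of all genes tested were. The calcium-handling genes Pln (phospholamban, log2 fold change -0.66 ± 0.08, adjusted p = 0.000462 in edgeR), Ryr2 (the ryanodine receptor, -0.45 ± 0.13, adjusted p = 0.0225) and Atp2a2 (the calcium pump of the sarcoplasmic reticulum, -0.41 ± 0.08, adjusted p = 0.00508) fell, with every TAZG197V heart below every WT heart. Slc8a1, the sodium-calcium exchanger, rose from 530.2 ± 28.8 to 912 ± 86.2 CPM (0.77 ± 0.07, adjusted p = 8.77e-05). Cacna1c, Nkx2-5 and Gata4 had log2 fold changes from -0.12 to 0.10 and were not called.

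Of 4 tested conduction system markers, 3 were called lower, where 15.1% of all genes tested were. Hcn4, the pacemaker channel, was at 14.0 ± 2.40 CPM in WT and 2.78 ± 0.759 CPM in TAZG197V hearts (log2 fold change -2.31 ± 0.14, adjusted p = 1.63e-05 in edgeR).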
